A study of Mus musculus with 3 samples.

Results

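Monocytes2 is a cell cluster that the authors of this study named in single-cell RNA profiles of 3 mouse melanomas. The 6 genes taken here as markers of Monocytes2 are known from dendritic cells. Its members were taken as every cell with that name in the deposited cell table, which gave 287 of 12670 cells: 69 from the untreated tumor, 57 from the regressed tumor and 161 from the progressed tumor. The 2 other monocyte and macrophage clusters, Macrophages with 794 cells and Monocytes1 with 475 cells, served for comparison. Each group was 1 tumor, from C57BL/6 mice that carried a conditional mutant Braf allele (Braf LSL), recombined in melanocytes by Tyr.CreER after tamoxifen on the skin, in some animals with the reporter Rosa26 LSL.tdTomato. The untreated tumor had received no inhibitor, and the regressed and the progressed tumor had been treated with vemurafenib, an inhibitor of mutant Braf, and sampled while shrunken or after growing back. The Tyr promoter directs Cre to melanocytes. The labels give no age and no sex.

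Dendritic cells take up antigen, load peptides on MHC class II molecules and present them to T cells. Type 1 conventional dendritic cells (cDC1) carry Xcr1 and Clec9a and pass antigen to CD8 T cells, whereas type 2 cells (cDC2) carry lectins such as Cd209a and Mgl2 and mainly prime CD4 T cells. Langerhans cells are the antigen-presenting cells of the epidermis, are held there by adhesion molecules and carry the lectin langerin (Cd207). Dendritic cells that mature raise Ccr7 and travel to lymph nodes. Plasmacytoid dendritic cells carry Siglech and are known for type I interferon.

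The 6 marker genes, chosen with earlier results of these data known, included the chemokines Ccl22 (chr8:94745684-94751388) and Ccl17 (chr8:94809380-94812038), which attract Ccr4-bearing T cells. The others were the lectin Cd207 (chr6:83671207-83677857), the cytokine receptor Flt3 (chr5:147330741-147400489), on which dendritic cell growth depends, and H2-Oa (chr17:34092379-34095234) and H2-Ob (chr17:34238905-34245908), the 2 chains of the molecule that restrains peptide loading on MHC class II. All 6 are protein-coding genes, with coordinates in GRCm38.p6. The promoters of an abundant MHC class II chain (H2-Aa), of H2-Oa, of Ccl17 and of Retnla, a gene that differed widely between the tumors, are shown with RefSeq sequence of GRCm38.p6 in 300-base windows, because the results turn on these genes. Capitals mark, in the first 2, the letters GATTGG on either strand, the core of the Y box to which the factor NF-Y binds in MHC class II promoters, and in the last 2 TTC followed by GAA after 4 bases and, in Ccl17, also after 3 bases, on either strand, the letters that STAT factors bind, STAT6 downstream of interleukin 4 among them.
H2-Aa: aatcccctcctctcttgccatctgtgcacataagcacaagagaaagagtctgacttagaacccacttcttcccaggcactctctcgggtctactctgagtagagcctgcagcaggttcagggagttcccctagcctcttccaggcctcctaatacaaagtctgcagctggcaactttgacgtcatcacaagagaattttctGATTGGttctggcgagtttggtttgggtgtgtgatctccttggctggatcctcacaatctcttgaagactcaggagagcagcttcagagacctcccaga
H2-Oa: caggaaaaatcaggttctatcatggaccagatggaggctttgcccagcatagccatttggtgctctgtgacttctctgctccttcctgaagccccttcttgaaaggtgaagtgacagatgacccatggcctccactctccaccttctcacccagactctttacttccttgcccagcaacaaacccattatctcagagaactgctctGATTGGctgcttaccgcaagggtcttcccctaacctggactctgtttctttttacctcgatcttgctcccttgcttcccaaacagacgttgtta
Ccl17: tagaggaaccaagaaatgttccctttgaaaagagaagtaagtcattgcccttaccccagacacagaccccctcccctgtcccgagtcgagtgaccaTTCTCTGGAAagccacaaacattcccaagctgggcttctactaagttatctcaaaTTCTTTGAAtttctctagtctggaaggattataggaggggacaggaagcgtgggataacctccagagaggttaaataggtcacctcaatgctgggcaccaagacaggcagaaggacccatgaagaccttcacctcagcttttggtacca
Retnla: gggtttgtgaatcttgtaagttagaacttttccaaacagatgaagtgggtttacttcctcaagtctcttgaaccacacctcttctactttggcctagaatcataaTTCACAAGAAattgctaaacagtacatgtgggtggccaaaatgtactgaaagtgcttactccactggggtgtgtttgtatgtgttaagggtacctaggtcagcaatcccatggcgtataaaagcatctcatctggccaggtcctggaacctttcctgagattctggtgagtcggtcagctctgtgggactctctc
The windows lie at chr17:34287774-34288073 on the minus strand, chr17:34092129-34092428, chr8:94810203-94810502 and chr16:48842359-48842658, the last 3 on the plus strand. GATTGG was found in 16.1% of the 32851 promoters in the table, and in 8 of the 8 MHC class II list genes that had an entry. The repeat with 4 bases between was in 6.95% and that with 3 bases in 8.3% of all promoters. A match is a description of the letters and does not show that a factor was bound.

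The libraries differed in ways that touch every comparison of tumors. The Monocytes2 cells held 426934 untreated, 435053 regressed and 1012474 progressed UMIs (unique molecular identifiers, each standing for 1 captured RNA molecule), with medians of 5468, 7460 and 5704 UMIs per cell. Expression is given in CPM, the UMIs of a gene scaled to a common total of the summed UMIs of a cluster in a tumor, with exact 95% intervals that cover counting error only. The regressed tumor stood apart: Xist, the transcript of the inactive X chromosome, was at 1211 and 1371 CPM in untreated and progressed Monocytes2 and at 2.30 CPM in regressed Monocytes2, and Y-linked genes were at 2.34, 1.98 and 237 CPM, so that sex, tumor and treatment outcome cannot be told apart. Its cells also held RNA of other cells at similar levels in the 3 clusters, with hemoglobin Hbb-bs at 1602 CPM in Monocytes2, 1622 CPM in Macrophages and 1630 CPM in Monocytes1, against 21.1 and 1.98 CPM in untreated and progressed Monocytes2. No cell name was shared between tumors. With 1 tumor per group no test between tumors was possible, and a comparison of clusters is a description too, because the clusters were built from the same genes.

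Monocytes2 was a larger share of the immune cells in the progressed tumor than in the other 2. It made up 6.55% (5.13 to 8.22) of 1053 immune cells in the untreated tumor, 5.96% (4.54 to 7.65) of 957 in the regressed tumor and 23.6% (20.4 to 26.9) of 683 in the progressed tumor, with exact Clopper-Pearson intervals. The untreated and regressed intervals overlapped and the progressed interval lay above both. The progressed share was also the highest among monocyte and macrophage clusters together, of which Monocytes2 was 11.4%, 14.4% and 29.1%, and among all cells, of which it was 1.68%, 1.53% and 3.32%. Without sub-cluster 3, described next, the shares were 5.51%, 5.85% and 17.9%. A larger share can come from more of these cells or fewer of the others, which cannot be told apart here.

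To ask which dendritic types the cluster holds, its 287 cells were clustered again without hemoglobin, sex-linked, ribosomal and mitochondrial genes, which gave 7 sub-clusters of 113, 60, 51, 27, 13, 12 and 11 cells. Names were given only from lists of known markers of which at least 3 were detected, and the genes that name a sub-cluster are not a result. This minimum alone did not separate named from unnamed sub-clusters. Sub-cluster 1 had 12 of 12 cDC1 genes detected and sub-cluster 3 had 14 of 14 macrophage genes, and neither was named. Among the 10 leading genes were 2 Langerhans genes in sub-cluster 4, 6 mature migratory genes in sub-cluster 6 and 4 plasmacytoid genes in sub-cluster 7. There were also 2 cDC1 genes in sub-cluster 1, 3 T cell genes in sub-cluster 2 and 2 fibroblast genes in sub-cluster 5. Sub-clusters 4, 6 and 7 were named, as Langerhans-like, mature migratory dendritic-like and plasmacytoid dendritic-like, and 1, 2, 3 and 5 were left unnamed. At the lower and the higher clustering resolution all 27, 12 and 11 cells of these 3 stayed together, and after thinning to 1000 UMIs 23, 12 and 11 did.

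**Figure D1:**
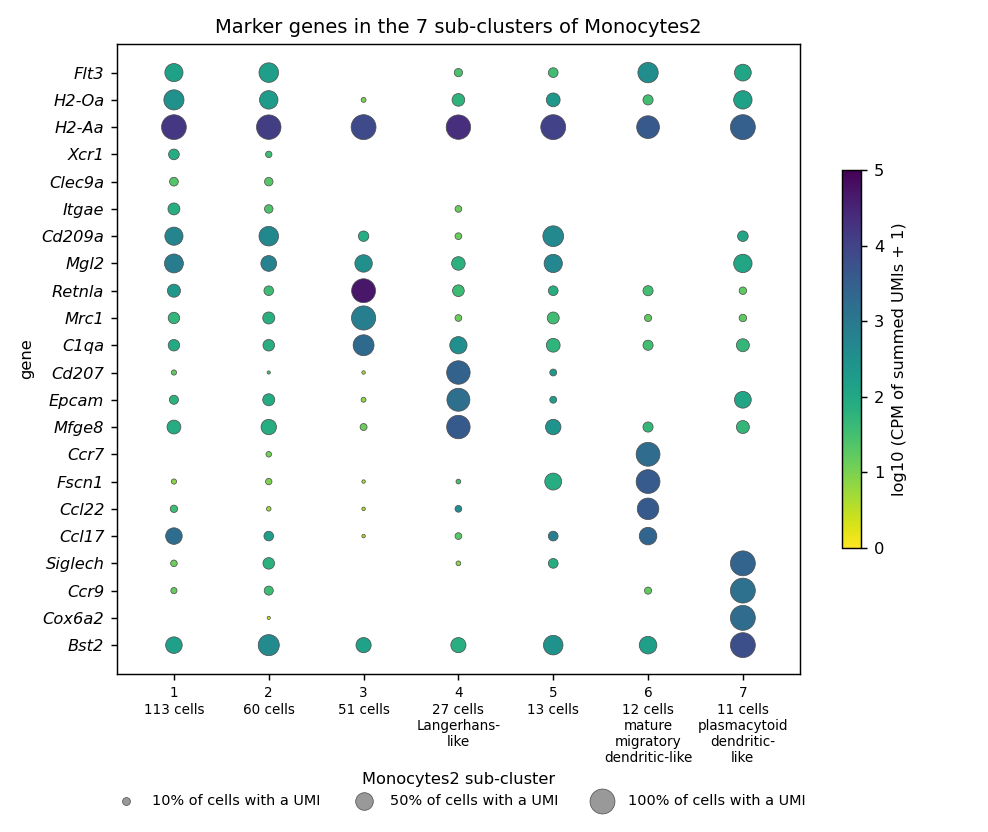
Marker genes (rows) in the 7 sub-clusters of Monocytes2 (columns, with their number of cells). Dot area is the percent of cells with a UMI and color the log10 of CPM + 1, and no dot means no UMI. Cd207 and Epcam mark sub-cluster 4 (Cd207 2761 CPM), Ccr7 and Fscn1 sub-cluster 6 (Ccr7 1768 CPM), Siglech and Cox6a2 sub-cluster 7 (Siglech 2527 CPM) and Retnla sub-cluster 3 (49078 CPM).

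Sub-cluster 4 carried the Langerhans genes. Cd207 was at 2761 CPM in it and was detected in 24 of its 27 cells, which held 91.3% of all Cd207 UMIs of Monocytes2. Epcam, an adhesion molecule that Langerhans cells share with keratinocytes, was at 1593 CPM, E-cadherin (Cdh1) at 297 CPM, the milk fat globule protein Mfge8 at 4076 CPM and Csf1r, the receptor through which interleukin 34 keeps Langerhans cells alive, at 1026 CPM. Among the 7 sub-clusters it held the highest sum of the MHC class II list, 134944 CPM, and the highest level of the atypical class I gene H2-M2, 1838 CPM. The list of genes shared by dendritic cells summed to only 252 CPM in it, against 1090 CPM in sub-cluster 1, with Flt3 at 25.8 CPM in 3 cells.

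Sub-cluster 6 was small and carried the mature migratory genes. The lymph node homing receptor Ccr7 was at 1768 CPM in 11 of its 12 cells, with 95.7% of the cluster's Ccr7 UMIs, and the actin bundling protein Fscn1, which shapes the long processes of mature dendritic cells, was at 3898 CPM. It held 75.3% of the Ccl22 UMIs (4087 CPM) and 71.0% of the Ccl5 UMIs (8901 CPM), but 10.2% of the Ccl17 UMIs (2415 CPM). A single untreated cell held 223 of its 259 Ccl22 UMIs and 105 of its 153 Ccl17 UMIs. The checkpoint ligand Cd274 was at 221 CPM and the costimulatory receptor Cd40 at 331 CPM, against 9.77 and 39.1 CPM in sub-cluster 1. Il12b, a subunit of interleukin 12 and interleukin 23, was detected in 2 of its cells and in no other sub-cluster. Its MHC class II sum, 25740 CPM, was below that of sub-clusters 1 to 5.

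Sub-cluster 7 carried the plasmacytoid genes. Siglech was at 2527 CPM and found in 11 of 11 cells, the gut-homing receptor Ccr9 at 1458 CPM, the transcription factors Irf8 and Tcf4, the second of which sets the plasmacytoid fate, at 4146 and 1361 CPM, and Bst2, which is both interferon-stimulated and a plasmacytoid surface marker, at 6398 CPM. These 11 cells held 50.3% of the Bst2 UMIs of Monocytes2. Dntt, a polymerase of lymphoid precursors, was found in 10 of them as 356 CPM. Their MHC class II sum was the lowest of all, 16926 CPM.

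Sub-clusters 1 and 2 together held 173 of the 287 cells and most of the Flt3 UMIs, 47.9% and 34.9%. Both carried MHC class II at a high level, 97443 and 79572 CPM, and the cDC2 lectins Cd209a (532 and 455 CPM) and Mgl2 (865 and 634 CPM). The whole cDC2 list summed to 3061 and 2637 CPM in them and to 2572 CPM in sub-cluster 3. In the 3 tumors it was at 2237, 2600 and 2499 CPM in Monocytes2 and at 2928, 2194 and 2508 CPM in Macrophages. By the 2-fold rule given below, 4 of its 11 tested genes were higher than in Macrophages in all 3 tumors (2.82% of all genes). Sirpa and Clec12a were lower (4.43% of all genes). Sub-cluster 1 held 79.9% of the Ccl17 UMIs, at 1672 CPM in 50 of 113 cells. Sub-cluster 2 came mostly from 1 library, with 39 of its 60 cells from the regressed tumor, and the genes that led it were T and NK cell genes and hemoglobin, so it may stand for that library and not for a cell type. Of the T cell genes Cd3d, Cd3e and Cd3g, 2 progressed cells with over 5 UMIs held 44 of the 80 UMIs found in Monocytes2.

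Within these 173 cells, the cells with a UMI of Xcr1 or Clec9a carried the other cDC1 genes as well. There were 33 such cells, 8 untreated, 4 regressed and 21 progressed, and none outside sub-clusters 1 and 2. Itgae (integrin CD103) was at 204 CPM in them and 11.8 CPM in the other 140 cells, Cadm1, an adhesion molecule, at 132 and 10.8 CPM, the double-stranded RNA sensor Tlr3 at 128 and 1.08 CPM and Irf8, the factor on which cDC1 depend, at 1769 and 117 CPM. The cDC2 genes lay the other way, Cd209a at 43.9 and 625 CPM, Mgl2 at 87.9 and 960 CPM and Sirpa, a receptor for the signal CD47, at 7.99 and 171 CPM. Cd209a was found in 3 of the 33 cells and in 94 of the 140. H2-Aa hardly differed, at 14167 and 15286 CPM, whereas H2-Ob was at 156 and 71.0 CPM. The split used 2 sparse genes, so a cell without a UMI of either may belong with the 33, and the values are a description.

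Sub-clusters 3 and 5 did not carry dendritic genes in front. Sub-cluster 3, with 51 cells, was led by Retnla, a secreted protein that interleukin 4 induces in macrophages, at 49078 CPM against 124 CPM in the rest of the cluster, and by the chemokine Ccl24 at 833 CPM. The macrophage list summed to 9783 CPM in it, the highest of the 7, with the mannose receptor Mrc1 at 752 CPM and C1qa at 2046 CPM, and Flt3 had 0 UMIs in 51 cells, which allows up to 9.28 CPM and up to 5.88% of cells with a UMI. Its MHC class II sum, 45614 CPM, was below those of sub-clusters 1 and 2 and within the range of Macrophages in the 3 tumors, 28198 to 54154 CPM. Sub-cluster 5, with 13 cells, was led by collagens (Col1a1 5024 CPM, Col1a2 8089 CPM), and the fibroblast list summed to 32048 CPM in it against 1713 to 3110 CPM in the others.

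The make-up of the cluster differed between the tumors. Sub-cluster 1 was 58.0% of untreated, 3.51% of regressed and 44.1% of progressed Monocytes2 cells, and sub-cluster 2 was 7.25%, 68.4% and 9.94%. The Langerhans-like cells were 8.70% (6 cells), 1.75% (1 cell) and 12.4% (20 cells), and the regressed interval (0.0444% to 9.39%) overlapped both others. Sub-cluster 3 was 15.9%, 1.75% and 24.2%, with 11, 1 and 39 cells, of which the 1 regressed cell held no Retnla UMI. Untreated and progressed tumors were alike in this order and the regressed tumor differed. The plasmacytoid-like cells were 2.90% (2 cells), 12.3% (7 cells) and 1.24% (2 cells), and the mature migratory-like cells 2.90%, 7.02% and 3.73% (2, 4 and 6 cells). The 3 intervals of the mature migratory-like share overlapped, and for the plasmacytoid-like share the regressed interval (5.08% to 23.7%) lay above the progressed one (0.151% to 4.42%) and overlapped the untreated one (0.353% to 10.1%). These shares rest on few cells, in the regressed tumor on 1 Langerhans-like and 7 plasmacytoid-like cells.

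**Figure D2:**
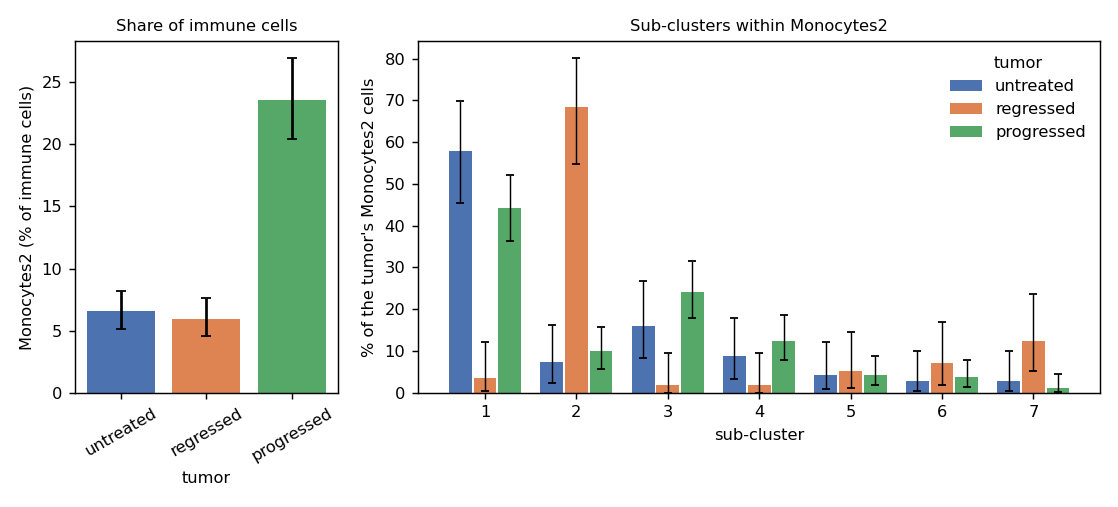
Left, Monocytes2 as a percent of the immune cells of each tumor. Right, each sub-cluster as a percent of the Monocytes2 cells of each tumor, with bars in the order untreated, regressed and progressed. Error bars are exact Clopper-Pearson 95% intervals for counting error. The progressed bar (23.6%) lies above the other 2 on the left, and sub-cluster 2 is mostly regressed (68.4%) on the right.

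Against Macrophages and Monocytes1, the 6 marker genes were higher in Monocytes2 in each tumor, except that Ccl22 had too few UMIs in the regressed tumor. Cd207 rested there on 12 UMIs, 11 of them in 1 cell. It was 2.48-fold higher than in Macrophages of that tumor with the zero set to 3 UMIs, and the log2 interval began at 0.78. Flt3 was at 122, 163 and 90.9 CPM in untreated, regressed and progressed Monocytes2, at 10.7, 3.71 and 2.37 CPM in Macrophages and at 6.23, 7.28 and 8.04 CPM in Monocytes1. H2-Oa was at 237, 159 and 172 CPM in Monocytes2, at 5.79, 0 and 10.3 CPM in Macrophages and at 1.78, 3.64 and 0 CPM in Monocytes1. H2-Ob was lower, at 35.1, 64.4 and 68.1 CPM in Monocytes2, and stayed at or under 8.69 CPM in the other 2 clusters. These 3 genes were spread over many cells. Flt3 was found in 31, 34 and 50 cells, H2-Oa in 37, 30 and 61 and H2-Ob in 13, 16 and 38 of the 69, 57 and 161 cells. Against Macrophages Flt3 was 11.3-fold higher in the untreated tumor, 44.0-fold in the regressed tumor (1 Macrophages UMI, log2 interval 2.93 to 10.78) and 38.3-fold in the progressed tumor (3 UMIs, 3.67 to 7.56).

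Ccl22, Ccl17 and Cd207 sat in few cells. Ccl17 was at 461, 202 and 1199 CPM and came from 4, 6 and 60 cells, with 105, 48 and 211 UMIs in the cell that held the most. Cd207 was at 379, 27.6 and 291 CPM, from 7, 2 and 23 cells. Ccl22 was at 534, 11.5 and 110 CPM, from 4, 2 and 18 cells, and 223 of its 228 untreated UMIs were in 1 cell. Without the cell with the most UMIs in each tumor Ccl22 was at 11.9, 2.33 and 54.8 CPM, and its log2 ratio of progressed to untreated went from -2.28 (-2.62 to -1.95) to 2.2 (0.89 to 3.88). The order of the tumors for Ccl22 therefore rested on 1 untreated cell. Ccl17 kept its order without those cells, at 219, 92.9 and 1001 CPM. Against Macrophages, where Ccl17 had 1, 0 and 2 UMIs, its log2 ratio was 9.12 (6.63 to 14.44) in the untreated and 9.57 (7.71 to 12.61) in the progressed tumor. In the regressed tumor Ccl17 was 18.2-fold higher with the zero set to 3 UMIs, and the log2 interval began at 3.85. Against Monocytes1, with 108, 2 and 1 UMIs, it was 4.8-fold, 83.3-fold and 298-fold higher. The untreated value rested on 197 Monocytes2 UMIs, of which 105 were in 1 cell.

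**Figure D3:**
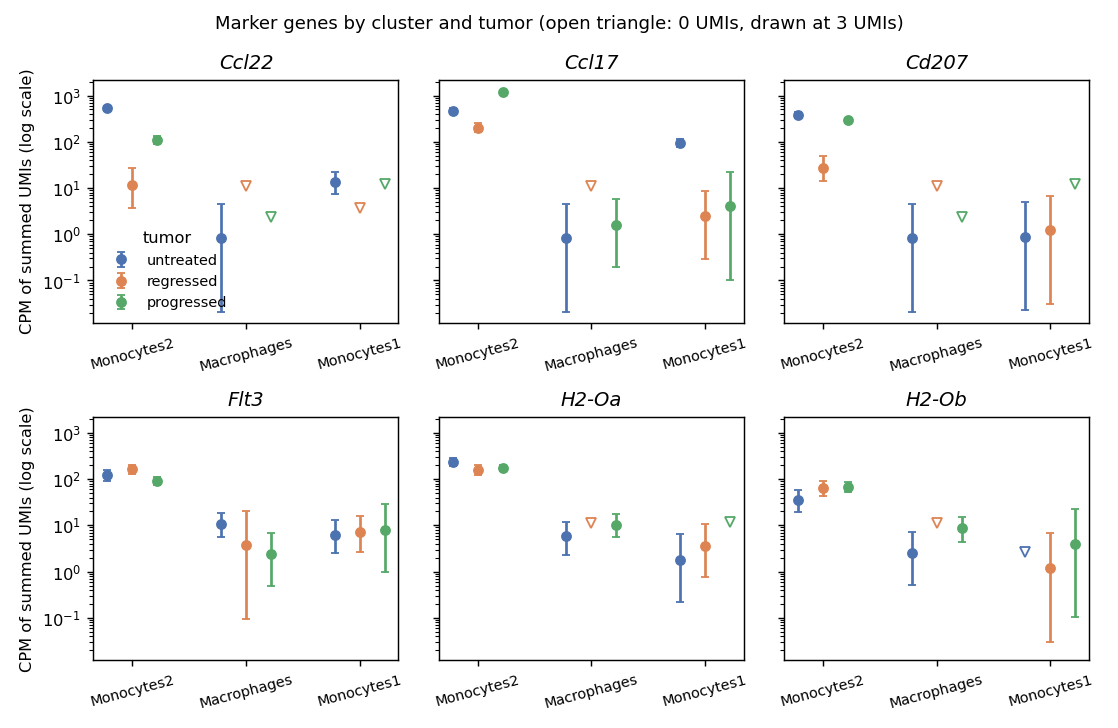
CPM (log scale) of the 6 marker genes in Monocytes2, Macrophages and Monocytes1 of each tumor. Points carry exact Poisson 95% intervals, and open triangles stand for 0 UMIs and are drawn at the CPM of 3 UMIs. In Monocytes2 Flt3 lies between 90.9 and 163 CPM in the 3 tumors, and Ccl22 runs from 11.5 to 534 CPM.

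**Figure D4:**
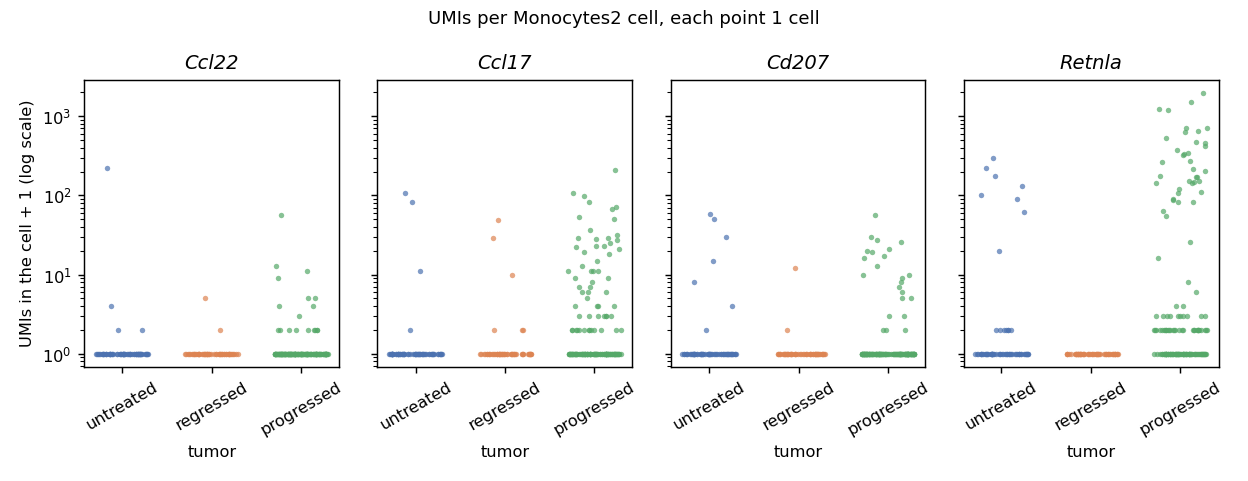
UMIs + 1 (log scale) of 4 genes in each Monocytes2 cell, spread sideways at random within a tumor. A single untreated cell with 223 UMIs sets the untreated level of Ccl22, Ccl17 is carried by 60 progressed cells, and no regressed cell holds a Retnla UMI.

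The share of cells with a UMI was far higher in Monocytes2 than in cells that should lack these genes. In the non-immune stroma clusters, Flt3 was found in 0.0761%, 0.886% and 0.146% and Ccl17 in 1.14%, 0.626% and 1.34% of cells (median 4654, 3151.5 and 4388 UMIs), against 44.9%, 59.6% and 31.1% for Flt3 and 5.80%, 10.5% and 37.3% for Ccl17 in Monocytes2. After every cell was thinned to 1000 UMIs, which left out 3, 1 and 5 Monocytes2 cells, Flt3 was found in 15.2%, 8.93% and 14.1% and Ccl17 in 4.55%, 5.36% and 23.7% of cells. Retnla was an exception. Stroma cells carried it in 8.26%, 0.0521% and 25.4% of cells, in the same order as Monocytes2 with 21.7%, 0% and 51.6%. The factor Zbtb46 was another, found in 13.7%, 9.33% and 13.9% of stroma cells and in 14.5%, 29.8% and 16.1% of Monocytes2 cells. After thinning it was found in 3.5%, 3.29% and 3.24% of stroma cells and in 3.03%, 1.79% and 2.56% of Monocytes2 cells.

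For the gene lists, a gene is counted as higher or lower when it differed by at least 2-fold with a 95% interval that left out 0 on the log2 scale, among genes with at least 20 UMIs in the 2 groups. In untreated, regressed and progressed tumors, 7.29%, 10.9% and 8.17% of all genes were higher in Monocytes2 than in Macrophages by this rule and 11.6%, 7.5% and 10.4% were lower, which makes 18.9%, 18.4% and 18.6% in either direction. Against Monocytes1, 7.26%, 5.6% and 7.68% were higher and 7.95%, 8.18% and 8.78% lower, or 15.2%, 13.8% and 16.5% in either direction. Under scaling by trimmed means (TMM), which shifted the median ratio, the share of these genes that were higher went from 47.8% to 32.5% in the untreated and from 46.7% to 61.8% in the progressed tumor against Monocytes1.

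MHC class II genes were higher in Monocytes2 than in both clusters. The list summed to 79122, 73056 and 83788 CPM in untreated, regressed and progressed Monocytes2, to 28198, 49990 and 54154 CPM in Macrophages and to 10538, 24445 and 14246 CPM in Monocytes1. Against Macrophages 9 of 9, 6 of 10 and 5 of 10 tested genes were higher and none lower, with log2 ratios of the sum of 1.49 (1.47 to 1.51), 0.55 (0.52 to 0.58) and 0.63 (0.62 to 0.64). Against Monocytes1 all tested genes were higher, 9, 10 and 10, with log2 ratios of 2.91, 1.58 and 2.56. The counts against both clusters include H2-Oa and, where tested, H2-Ob, which reached the minimum of UMIs only through Monocytes2. The invariant chain Cd74, which guides class II molecules to the loading compartment, was the most abundant of them, at 36835, 35564 and 40268 CPM. H2-DMa and H2-DMb2, of the editor of bound peptides, and Ciita, the master switch of the class II genes, passed the rule against Macrophages in all 3 tumors. The peptide-presenting chains H2-Aa, H2-Ab1 and H2-Eb1 did not. H2-Oa, of the regulator of that editor, passed it only through its Monocytes2 UMIs, with 7, 0 and 13 UMIs in Macrophages. Ciita was at 110, 126 and 98.8 CPM in Monocytes2 and at 23.1, 44.5 and 25.3 CPM in Macrophages.

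The 10 genes shared by dendritic cells, which include Flt3, H2-Oa and H2-Ob, summed to 885, 1060 and 723 CPM in Monocytes2, to 74.4, 81.7 and 58.5 CPM in Macrophages and to 58.7, 102 and 68.3 CPM in Monocytes1. Most of them passed the minimum of UMIs only through Monocytes2, so their number past 2-fold is not given. Besides those 3 the list held the integrin Itgax (152, 85.0 and 103 CPM in Monocytes2 and at most 18.6 CPM in Macrophages), the factor Zbtb46 (23.4, 43.7 and 30.6 CPM), a mark of conventional dendritic cells, the lymphocyte attenuator Btla, the factor Bcl11a and the peptidase Dpp4. Btla was at 39.8, 46.0 and 26.7 CPM in Monocytes2 and at 0.826, 0 and 0 CPM in Macrophages. Zbtb46 was also found in stroma cells, as given above.

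The macrophage and scavenger genes lay below Macrophages. The macrophage list summed to 1656, 2744 and 3947 CPM in Monocytes2 and to 44553, 59637 and 60540 CPM in Macrophages. By the 2-fold rule 14 of 14, 13 of 14 and 14 of 14 of its genes were lower, against 11.6%, 7.5% and 10.4% of all genes. These counts include genes that reached the minimum of UMIs only through Macrophages, Mertk among them. The complement chain C1qa was at 215, 177 and 650 CPM against 4498, 5764 and 6603 CPM in Macrophages, and the receptor Mertk, which clears dead cells, had 1, 1 and 3 UMIs. Fc receptors and complement genes were lower for 10 of 13, 9 of 10 and 12 of 13 tested genes, against the same shares of all genes. Lysosome and lipid handling genes were lower for 9 of 14 in each tumor. Of the chemokine ligands, Ccl17 and Ccl5 were higher than in Macrophages in all 3 tumors and Ccl2, Ccl3, Ccl7, Ccl8, Ccl12 and Pf4 lower. Ccl17, with 1, 0 and 2 UMIs in Macrophages, reached the minimum of UMIs only through Monocytes2. Ccl8 was at 14.1, 36.8 and 10.9 CPM in Monocytes2 and at 2945, 3916 and 3848 CPM in Macrophages. Against Monocytes1, of 15 tested ligands only Ccl17 was higher and only Ccl3 lower in all 3 tumors. Ccl17 was at 96.1 CPM in untreated Monocytes1 and had 2 and 1 UMIs in the regressed and progressed tumor.

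Over all genes, 145 of 5142 tested in every tumor were higher than in Macrophages in all 3 tumors (2.82%) and 228 lower (4.43%). Against Monocytes1, 101 of 6007 (1.68%) were higher and 139 (2.31%) lower. Of 4884 genes tested against both, 51 were higher and 46 lower than in both clusters in all 3 tumors. By the smallest of the 3 ratios, the genes farthest above Macrophages were AA467197, Ccl17, Cd24a, Fscn1, H2-Oa, Dpp4, Ccr7, Gpr171, Cdh1 and P2ry10, and the genes farthest below were Ccl8, Ms4a7, Stab1, Ccl12, Cbr2, Pf4, Mertk, Cd209f, Cd93 and Maf. For Ccl17 and H2-Oa the smallest ratio was a bound, 4.18 and 3.83 on the log2 scale, with 0 UMIs in regressed Macrophages set to 3. Both reached the minimum of UMIs only through Monocytes2. The value of H2-Oa against Monocytes1, 3.83, was such a bound too, in the progressed tumor. Ranks of other genes may also rest on this floor. AA467197 overlaps the microRNA gene Mir147 and its reads cannot be assigned between them. Farthest above Monocytes1 were Mgl2, Tbc1d4, Cd7, H2-Oa, Fscn1, Klra17, Slamf9, Flt3, Dpp4 and Cd209d, and farthest below were Apoc2, Chil3, Msr1, Clec4d, Slfn1, Pla2g7, Ifi204, Ifi206, Lyz2 and Tmem38b. Lysozyme 2 (Lyz2), a general myeloid gene, was at 911, 680 and 1663 CPM in Monocytes2 and at 7254, 9808 and 20673 CPM in Monocytes1. The monocyte list was lower than in Monocytes1 for 6, 7 and 8 of 10 genes, against 7.95%, 8.18% and 8.78% of all genes. Ly6c2, the antigen of inflammatory monocytes, was at 351, 239 and 112 CPM against 722, 265 and 1206 CPM.

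The cell cycle list summed higher in Monocytes2 than in Macrophages in each tumor, by least in the regressed tumor. The list summed to 1761, 841 and 1724 CPM in Monocytes2 and to 520, 605 and 457 CPM in Macrophages. In the untreated tumor 9 of 11 and in the progressed tumor 13 of 14 tested genes were higher (7.29% and 8.17% of all genes). In the regressed tumor it was 0 of 4 (10.9% of all genes), and Macrophages of that tumor held only 269415 UMIs, so few genes reached the minimum. In Macrophages 3 UMIs made 2.48, 11.1 and 2.37 CPM, so some genes could reach the minimum through Monocytes2 alone. Top2a, which untangles DNA in division, was at 89.0, 20.7 and 127 CPM in Monocytes2 and at 11.6, 11.1 and 5.53 CPM in Macrophages.

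Between the tumors, the summed MHC class II list of all Monocytes2 cells differed by less than in Macrophages in 2 of 3 contrasts. On the log2 scale the summed list of regressed cells lay -0.12 (-0.14 to -0.09) from that of untreated cells. Progressed cells lay 0.20 (0.18 to 0.22) from regressed and 0.08 (0.06 to 0.10) from untreated cells. Within sub-clusters 1 and 2 alone the first of these was 0.15, and after removal of the deepest 5% of cells the last was -0.10. Without cells that held UMIs of several genes of another cell type, which left 16, 3 and 32 cells, the first was -0.92 and the last -0.43. The same list in Macrophages had ratios of 0.83, 0.12 and 0.94, and in Monocytes1 of 1.21, -0.78 and 0.43. Of 10 genes tested in each contrast, only H2-DMb2 was past 2-fold, and only in the contrasts with the regressed tumor. It was at 65.6, 143 and 64.2 CPM in untreated, regressed and progressed cells. Over all genes, 10.1% were higher and 4.8% lower in regressed than untreated cells (587 and 278 of 5789), 4.46% higher and 11.5% lower in progressed than regressed cells (332 and 856 of 7439), and 3.64% higher and 3.74% lower in progressed than untreated cells (258 and 265 of 7085). In either direction these make 14.9%, 16% and 7.38%. Under TMM scaling the share of these genes that were higher went from 67.9% to 56.0%, from 27.9% to 52.6% and from 49.3% to 66.9%, with shifts of the log2 ratios of -0.12, 0.25 and 0.13.

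The Langerhans and plasmacytoid lists lay in opposite directions in the regressed tumor. The Langerhans list was lower in regressed than untreated cells for 6 of 6 tested genes (4.8% of all genes). It was higher in progressed than regressed cells for 5 of 7 (4.46% of all genes), and its sum was at 1921, 388 and 1378 CPM. Epcam was at 262, 71.3 and 207 CPM. The plasmacytoid list went the other way, with 7 of 11 genes higher in regressed than untreated cells (10.1% of all genes). In progressed against regressed cells 11 of 12 were lower (11.5% of all genes), and Siglech was at 63.2, 260 and 61.2 CPM. These counts add no support to the sub-cluster shares, with 6, 1 and 20 Langerhans-like and 2, 7 and 2 plasmacytoid-like cells. Cd207, with 162, 12 and 295 UMIs, reached the minimum of UMIs only through the tumors where it was high. The log2 ratio of the plasmacytoid sum, regressed to untreated, was 1.66 in Monocytes2, 0.51 in Macrophages, 0.93 in Monocytes1 and 0.57 in all other cells. Ly6d made up 24.6% of that sum in regressed Monocytes2 and 56.3% in all other regressed cells. The untreated sum of the Langerhans list was above the progressed one, with a log2 ratio of progressed to untreated of -0.48 (-0.60 to -0.35), whereas sub-cluster 4 was a larger share of progressed than of untreated cells.

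Retnla and several chemokines were lower in the regressed tumor than in the other 2. Retnla was at 2567, 0 and 14771 CPM in Monocytes2 of the untreated, regressed and progressed tumor, from 15, 0 and 83 cells. In Macrophages it was at 3290, 3.71 and 3852 CPM. Ccl24 was at 178, 0 and 193 CPM, and Ccl6, a chemokine of macrophages and granulocytes, at 754, 110 and 1590 CPM, with 99.3% and 87.4% of their UMIs in sub-cluster 3. Of the chemokine ligands 9 of 16 tested were lower and none higher in regressed than untreated cells (4.8% and 10.1% of all genes). In progressed than regressed cells 12 of 16 were higher (4.46%), and in progressed than untreated cells 4 were higher and 2 lower of 15 (3.64% and 3.74%). Ccl24, with 76, 0 and 195 UMIs, reached the minimum of UMIs only through the tumors where it was high. The untreated Ccl22 level rested on 1 cell, as given above. Of the cytokines 5 of 8 were lower in regressed than untreated cells (4.8% of all genes). Interleukin 1 beta (Il1b) was at 764, 336 and 374 CPM, with log2 ratios to untreated cells of -1.19 (-1.48 to -0.90) in regressed and -1.03 (-1.25 to -0.81) in progressed cells.

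Cell cycle genes were lower in the regressed tumor. Against untreated cells 6 of 11 tested genes were lower (4.8% of all genes), and progressed against regressed cells 9 of 14 were higher (4.46% of all genes). The log2 ratios of the sum were -1.07 (-1.25 to -0.88) and 1.03 (0.87 to 1.2). Progressed and untreated cells did not differ beyond counting error in the sum, at -0.03 (-0.16 to 0.09). In Macrophages the ratios were 0.22, -0.41 and -0.19. The differences turned to 0.45 and -0.10 without the 236 of 287 cells that held UMIs of several genes of another cell type, which left 16, 3 and 32 cells, and were -0.19 and 1.31 when fibroblast genes were left out of that rule.

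Interferon-stimulated genes of Monocytes2 and Macrophages lay in different orders. The list summed to 693, 1071 and 552 CPM in Monocytes2 and to 556, 787 and 1205 CPM in Macrophages. The log2 ratio of progressed to untreated was -0.33 (-0.53 to -0.12) in Monocytes2, 1.12 (0.98 to 1.25) in Macrophages and 1.27 (1.07 to 1.48) in Monocytes1. In the progressed tumor 9 of 13 tested genes were lower in Monocytes2 than in Macrophages (10.4% of all genes) and none was higher (8.17% of all genes). Bst2 made up 44.9%, 73.4% and 55.5% of the Monocytes2 sum, at 312, 786 and 306 CPM, and 50.3% of its UMIs were in the 11 plasmacytoid-like cells. The ratio of regressed to untreated was 0.63 (0.41 to 0.84) with Bst2 and -0.42 without it.

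**Figure D5:**
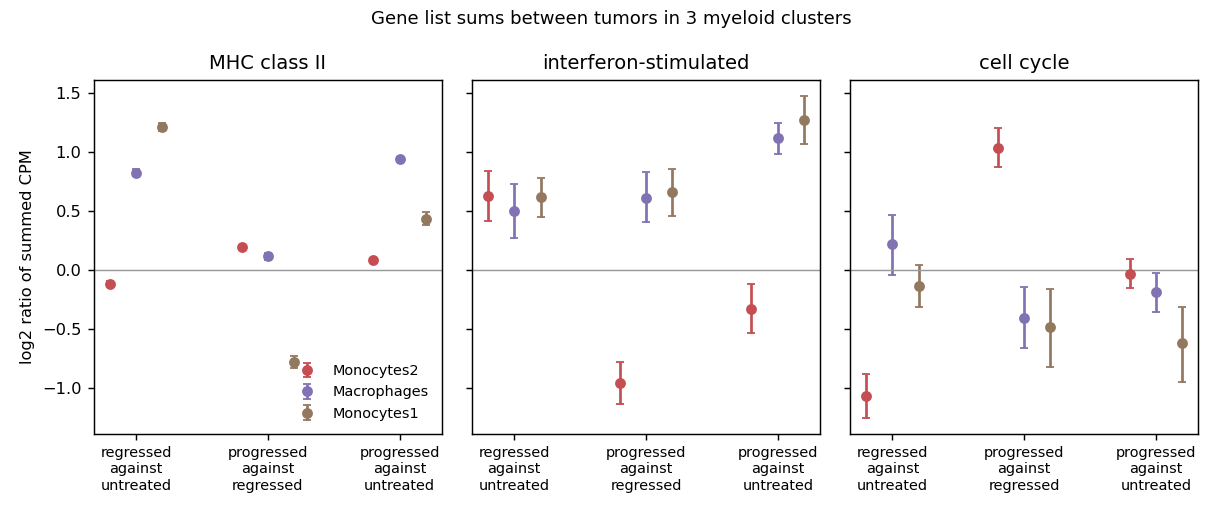
Log2 ratio of the summed CPM of 3 gene lists for each pair of tumors, in Monocytes2, Macrophages and Monocytes1, with exact conditional binomial 95% intervals. In Monocytes2 MHC class II stays between -0.12 and 0.20 with all cells, whereas interferon-stimulated genes lie at -0.33 for progressed against untreated and at 1.12 and 1.27 in the other 2 clusters.

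Several of the largest gene differences between the tumors were shared with other clusters. Highest in regressed against untreated cells were Mcpt4, Tpsb2, Defb6, Mir6240, Cma1 and Cpa3, of which Mcpt4, Tpsb2, Cma1 and Cpa3 encode mast cell proteases, and lowest were Retnla, Ccl24, Ccl22, Prtn3, Tmem45b and Areg. Tpsb2 was at 4.68, 202 and 19.8 CPM in Monocytes2, and at 223 CPM in both Macrophages and Monocytes1 of the regressed tumor. Of the mast list 7 of 8 genes had a UMI in regressed Monocytes2, with Gata2 at 0, and its sum was 584 CPM against 657 CPM in Macrophages and 629 CPM in Monocytes1. Lowest in progressed against regressed cells were Ifitm1, S100a8, S100a9, Mir6240, Mir6236 and Mir5107, and highest were Retnla, Ccl24, Mucl1, Ccl6, H2-M2 and Fn1. The neutrophil genes S100a8 and S100a9 stood at 335 and 323 CPM in untreated, 317 and 156 CPM in regressed and 2.96 and 0.988 CPM in progressed Monocytes2, and S100a8 in Macrophages was at 474, 401 and 0.790 CPM. The whole neutrophil list summed to 822, 515 and 44.4 CPM in Monocytes2 and to 1060, 765 and 39.5 CPM in Macrophages, with 8, 7 and 7 of its 8 genes detected in Monocytes2. The keratinocyte list, with 8 of 8 genes detected, summed to 173, 1188 and 548 CPM in Monocytes2 and to 202, 1407 and 379 CPM in Macrophages. The part of RNA from other cells in these differences was not tested.

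Ifitm1, an interferon-induced membrane protein, was higher in Monocytes2 than in both other clusters in the untreated and the regressed tumor, and below Monocytes1 in the progressed tumor. It was at 2164, 2009 and 21.7 CPM in Monocytes2, at 179, 52.0 and 13.4 CPM in Macrophages and at 824, 623 and 40.2 CPM in Monocytes1. It was found in 38 of 69, 30 of 57 and 10 of 161 Monocytes2 cells, high in the untreated and regressed tumor and low in the progressed tumor, with a log2 ratio of progressed to untreated of -6.64 (-7.32 to -6.03). In progressed against untreated cells Ptn, Retnla, Defb6, Islr, Apoe and Ccl5 were highest and Ifitm1, S100a9, S100a8, Hp, Prtn3 and Elane lowest. Ccl5, which attracts T cells and monocytes, was at 145, 251 and 615 CPM, from 3, 8 and 17 cells. Prtn3 and Elane, granule proteases of neutrophil precursors, were carried by 4 and 2 untreated cells.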

How the data were processed

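Single cells of 3 melanomas were profiled with a droplet 3' kit. Per the submitters' processing notes the authors used GSNAP, GRCm38 (mm10) and Seurat 2.2.0. The deposited tables hold UMI counts per gene and cell, not normalized, with genes as Entrez identifiers, and a deposited table names each cell's cluster. Of 36530 features 31049 matched a symbol, and 5479 known by a number only held 3.74% of UMIs. The other 2 are transgene features. Table sums exceeded the deposited cell totals by 5.02%, and the lowest cell total was 326.

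Counts were summed per cluster and tumor and divided by the sum to give CPM. Intervals at 95% were exact Poisson for CPM, Clopper-Pearson for shares and conditional binomial for ratios, and cover counting error only. A count of 0 was set to 3 UMIs for bounds. Groups came from the sample labels, and with 1 tumor per group no test was run. Sub-clusters came from scanpy 1.11.5 with Leiden clustering (1000 variable genes, 15 components, 15 neighbours, resolution 0.8). Scrublet marked 2, 1 and 3 cells and was not used, so no doublets were removed. TMM used edgeR 4.0.16 in R 4.3.3, and the rest numpy 2.4.6, scipy 1.17.1 and pandas 2.3.3 in Python 3.11.15. The computation was tested on simulated data.

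Genes were named by these rules: the 6 marker genes, members of the lists, the 10 genes in each direction with the largest log2 ratio nearest 0 over the 3 tumors against each cluster, and for each pair of tumors the 6 genes in each direction by the bound of the interval nearest 0, without hemoglobin and sex-linked genes. The cells with Xcr1 or Clec9a were set apart after their values were seen. The members and gene lists were chosen with earlier results of these data known. Promoters are RefSeq sequence. Part of the genotype shared by all groups is not reported here.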

Additional observations from a re-analysis of the deposited data

Results flagged for a closer look

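These log2 ratios of list sums between tumors lay on opposite sides of 0 in Monocytes2 and in Macrophages, with 1 tumor per group, so the difference between the clusters was not tested. MHC class II, regressed against untreated, was at -0.12 in Monocytes2 and 0.83 in Macrophages. Interferon-stimulated genes were at -0.96 against 0.61 for progressed against regressed and at -0.33 against 1.12 for progressed against untreated, and the first of these was -0.21 without Bst2 and -0.14 in sub-clusters 1 and 2 only. Cell cycle genes were at 1.03 against -0.41 for progressed against regressed. Cytokine receptors were at -0.16 against 0.12 for progressed against regressed and at -0.42 against 0.07 for progressed against untreated. Fc receptors and complement genes were at -0.39 against 0.05 and transcription factors at 0.17 against -0.34, both for regressed against untreated.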

How the results depend on the processing

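Cell shares and list sums are values with no test, so they were set against their counting error. Of the values that answer a comparison, 110 stayed within that error or the 1.5-fold range for counts under an alternative, 99 moved further and 9 turned in direction, and of the values of named genes 411 stayed, 40 moved and 5 turned. Sub-clusters 1 and 2 only, the removal of sub-cluster 3, the doublets marked without fibroblast genes and the removal of the top cell of a gene were chosen after seeing the data. The causes of these differences were not tested. The share of Monocytes2 among all cells was 1.68%, 1.53% and 3.32%, and among monocyte and macrophage clusters 11.4%, 14.4% and 29.1%, in untreated, regressed and progressed tumors. The progressed share of immune cells was 17.9% without sub-cluster 3. After thinning to 1000 UMIs, 0% of regressed cells were in the group of sub-cluster 3. For MHC class II, regressed against untreated, the log2 ratio was -0.23 under TMM scaling, -0.20 with equal weight per cell, -0.30 without the deepest 5% of cells, -0.0812 as the median of the genes, -0.17 without the largest gene, -0.92 without marker doublets, -0.31 without the doublets marked by genes other than fibroblast genes, -0.23 without sub-cluster 3, 0.15 in sub-clusters 1 and 2 only. For MHC class II, progressed against regressed, the log2 ratio was 0.45 under TMM scaling, 0.26 with equal weight per cell, 0.11 as the median of the genes, 0.48 without marker doublets, 0.25 without the doublets marked by genes other than fibroblast genes, 0.44 without sub-cluster 3, 0.23 in sub-clusters 1 and 2 only. For MHC class II, progressed against untreated, the log2 ratio was 0.21 under TMM scaling, 0.0579 with equal weight per cell, -0.10 without the deepest 5% of cells, 0.00906 as the median of the genes, 0.0414 without the largest gene, -0.43 without marker doublets, -0.0518 without the doublets marked by genes other than fibroblast genes, 0.21 without sub-cluster 3, 0.38 in sub-clusters 1 and 2 only. For interferon-stimulated genes, regressed against untreated, the log2 ratio was 0.40 as the median of the genes, -0.42 without the largest gene, -0.84 without marker doublets, -0.28 in sub-clusters 1 and 2 only. For interferon-stimulated genes, progressed against regressed, the log2 ratio was -0.71 under TMM scaling, -0.28 as the median of the genes, -0.21 without the largest gene, -0.19 without marker doublets, -0.14 in sub-clusters 1 and 2 only. For interferon-stimulated genes, progressed against untreated, the log2 ratio was -0.63 without the largest gene, -1.04 without marker doublets. For cell cycle genes, regressed against untreated, the log2 ratio was -0.74 with equal weight per cell, -0.67 without the deepest 5% of cells, -1.43 as the median of the genes, -1.49 without the largest gene, 0.45 without marker doublets, -0.19 without the doublets marked by genes other than fibroblast genes. For cell cycle genes, progressed against regressed, the log2 ratio was 1.28 under TMM scaling, 1.70 as the median of the genes, 1.39 without the largest gene, -0.10 without marker doublets, 1.31 without the doublets marked by genes other than fibroblast genes. For cell cycle genes, progressed against untreated, the log2 ratio was 0.10 under TMM scaling, 0.33 with equal weight per cell, 0.31 without the deepest 5% of cells, 0.13 as the median of the genes, 0.35 without marker doublets, 1.13 without the doublets marked by genes other than fibroblast genes. MHC class II against Macrophages in the untreated tumor was 1.38 under TMM scaling, 1.68 with equal weight per cell, 1.73 without the deepest 5% of cells, 1.71 as the median of the genes, 1.52 without the largest gene, 2.01 without marker doublets, 1.67 without the doublets marked by genes other than fibroblast genes, 1.58 without sub-cluster 3, 1.45 in sub-clusters 1 and 2 only. MHC class II against Macrophages in the regressed tumor was 0.51 under TMM scaling, 0.80 with equal weight per cell, 0.63 without the deepest 5% of cells, 1.24 as the median of the genes, 0.27 without marker doublets, 0.77 in sub-clusters 1 and 2 only. MHC class II against Macrophages in the progressed tumor was 0.55 under TMM scaling, 0.71 with equal weight per cell, 0.89 as the median of the genes, 0.57 without the largest gene, 0.67 without the doublets marked by genes other than fibroblast genes, 0.85 without sub-cluster 3, 0.89 in sub-clusters 1 and 2 only. MHC class II against Monocytes1 in the untreated tumor was 2.72 under TMM scaling, 2.73 with equal weight per cell, 2.95 without the deepest 5% of cells, 3.03 without the largest gene, 3.43 without marker doublets, 3.09 without the doublets marked by genes other than fibroblast genes, 3.0 without sub-cluster 3, 2.87 in sub-clusters 1 and 2 only. MHC class II against Monocytes1 in the regressed tumor was 1.64 with equal weight per cell, 1.5 without the deepest 5% of cells, 1.5 as the median of the genes, 1.53 without the largest gene, 1.30 without marker doublets, 1.81 in sub-clusters 1 and 2 only. MHC class II against Monocytes1 in the progressed tumor was 2.75 under TMM scaling, 2.05 with equal weight per cell, 2.78 without sub-cluster 3, 2.82 in sub-clusters 1 and 2 only. With at least 50 UMIs per gene, 338 genes passed the 2-fold rule between regressed and untreated cells, 574 between progressed and regressed and 226 between progressed and untreated, 75 were higher and 136 lower than in Macrophages in all 3 tumors, and 49 were higher and 87 lower than in Monocytes1. Under TMM scaling 460 genes were higher and 362 lower in regressed than untreated cells, 571 and 514 in progressed than regressed cells, and 324 and 160 in progressed than untreated cells. In sub-clusters 1 and 2 only, Cd207 turned to 1.67, -1.2 and 0.47 in these contrasts and Ccl22 to 3.76 in progressed against untreated cells, and without the top cell of each tumor Ccl22 turned to 2.2. No paired analysis was possible because each group holds 1 tumor. Leaving out a replicate was not possible for the same reason, and no difference between tumors can be set against the spread between animals.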
